A study of Mus musculus with 96 samples.

Results

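Calorie restriction in the liver of C57BL6/J mice was examined by comparing 8 mice titled as calorie restricted with 8 mice titled as control, which are 16 of the 96 arrays of the study. The comparison covers all 14816 genes that passed a filter on low signals, as log2 of the deposited signal. The study measured liver RNA of male mice of 6 strains (C57BL6/J, DBA/2J, 129S1/SvImJ, B6C3F1/J, CBA/J and C3H/HeJ) on a control diet or on a diet with 25% fewer calories, with 8 mice in each of the 12 groups and 1 mouse on each Affymetrix whole-genome mouse array. Both C57BL6/J groups were males bought at 6 weeks of age, housed singly and given 84 kcal per week of a diet based on AIN93M for 2 weeks. The control group then stayed on the control diet and the restricted group received the restricted diet from 8 weeks of age, until tissue was taken at 22 weeks, after 14 weeks on the diets. Apart from the diet, the labels give no treatment and no genetic alteration. The hour of collection and the time since the last meal are not given in the labels. The question of the comparison is how the liver transcriptome of this common inbred strain differs after a moderate, lasting cut in calories.

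The liver stores glucose as glycogen after a meal, turns surplus carbohydrate into fatty acids under the control of insulin and the transcription factor SREBP1c, and burns fatty acids and releases glucose between meals under the control of PPAR-alpha, glucagon and glucocorticoids. Mice that receive a restricted ration usually eat it quickly and then fast until the next one, so that feeding and fasting programmes, and the circadian clock of the liver, depend on the time of feeding. The male mouse liver also carries a programme of sex-biased genes that depends on pulses of growth hormone, and resident macrophages, the Kupffer cells, take part in its interferon and antigen-presenting programmes.

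Signals are given as log2 values, differences are those of restricted from control mice, with standard errors (SE), and each group holds n = 8 mice. A gene is called when its p-value from limma, adjusted over all 14816 genes, is under 0.05. The median log2 signal of the C57BL6/J arrays lay between 6.35 and 6.63 in control mice and between 6.21 and 6.48 in restricted mice. Hepatocyte markers were bright in both groups, with a mean over 8 genes of 15.37 ± 0.24 (SD) and 15.42 ± 0.14. For beta-actin, the log2 signal of the 3' control probe set minus that of the 5' one, a measure of RNA integrity, was larger in restricted mice (1.07 ± 0.14, SD) than in control mice (0.81 ± 0.11; two-sided exact permutation test over all 12870 splits, p = 0.00124, adjusted p = 0.0174 over 14 array measures). The same measure for Gapdh was -0.38 ± 0.06 in both groups (exact permutation p = 0.83), and the part of RNA integrity in the results was not tested. Control replicate 1 and restricted replicate 2 stood apart from their groups in several genes, among them Per2, Srebf1, Igfbp1 and Ifit1, and restricted replicate 2 had the lowest median correlation with its own group (r = 0.910). Calls that were lost or gained without these 2 mice are given both ways.

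Of the 14816 genes, 550 (3.71%) were called, 276 higher (1.86%) and 274 lower (1.85%) in restricted mice. At least 2-fold differences were found for 116 of the higher and 97 of the lower genes. Among the called genes, 108 higher and 125 lower ones had groups that did not overlap at all, and 369 of all genes tested (2.49%) had such groups. The median difference over all genes was -0.02. These counts come from a fit of all 96 arrays, whose spread includes 2 arrays of other strains with a median log2 signal above 8. Without those 2 arrays 1066 genes were called, and a fit of the 16 C57BL6/J arrays alone called 1533 genes, 716 higher and 817 lower, with 539 of the 550 among them. Leaving out both C57BL6/J mice that stood apart gave 747 calls, with 480 of the 550 kept.

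**Figure D1:**
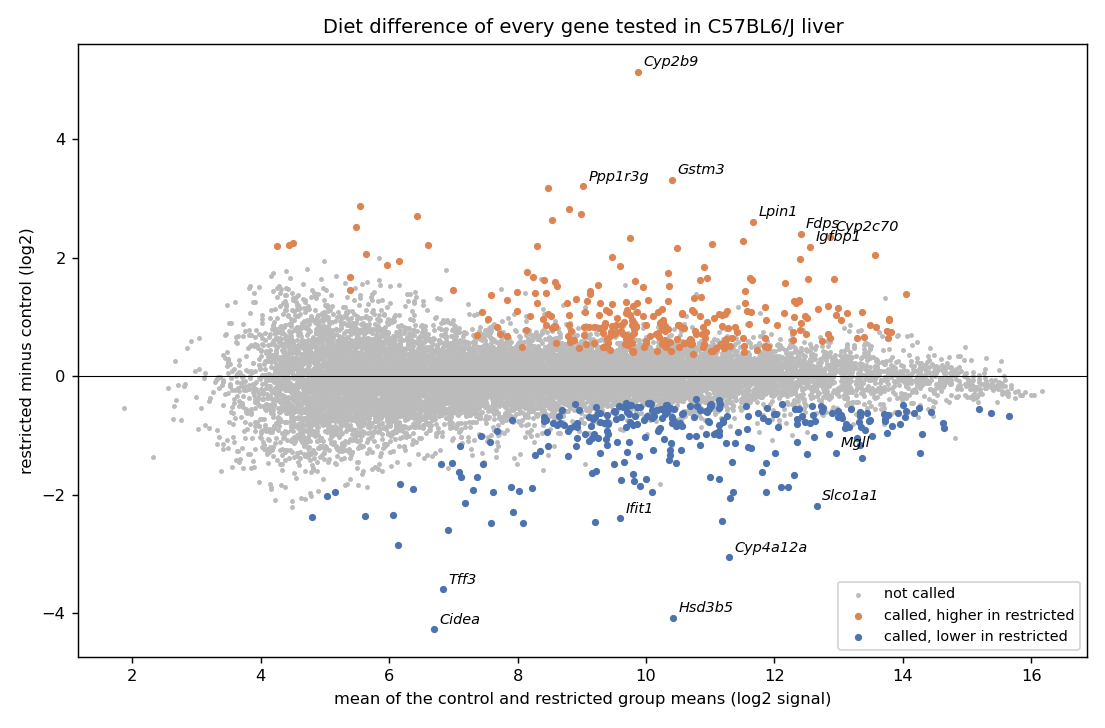
Each point is 1 of the 14816 genes, with the mean of the control and restricted group means (log2 signal) on the horizontal axis and the difference of restricted minus control (log2) on the vertical axis. Orange points are the 276 genes called higher and blue points the 274 genes called lower, and the labelled genes reach from Cyp2b9 at 5.13 to Cidea at -4.26.

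The largest rise among called genes was that of Cyp2b9, a cytochrome P450 of the female-biased list. Its log2 signal ran from 6.26 to 9.09 in the control mice (median 7.02) and from 11.48 to 12.98 in the restricted mice (median 12.53). The lowest restricted mouse lay above the highest control mouse by more than the range within the restricted group, and the difference was 5.13 ± 0.61, or 35.1-fold (adjusted p = 2.53e-09). Gstm3, a glutathione S-transferase, rose 9.94-fold (3.31 ± 0.40, adjusted p = 2.90e-09), again without overlap of the groups. The organic anion transporter genes Slc22a27 and Slc22a29 rose 9.02-fold and 7.04-fold. Cyp26a1, which breaks down retinoic acid, rose 6.22-fold (2.64 ± 0.33, adjusted p = 3.82e-09), from a control range of 6.70 to 7.76, median 7.21, to a restricted range of 9.15 to 10.41, median 9.94. Cyp2c70, the enzyme that makes muricholic acids from other bile acids, had the smallest adjusted p among the largest changes. Its signal lay from 11.26 to 12.45 in the control mice (median 11.58) and from 13.78 to 14.25 in the restricted mice (median 14.08), and it rose 5.1-fold (2.35 ± 0.22, adjusted p = 8.38e-14). Lepr, the leptin receptor, rose 5.04-fold (2.33 ± 0.30, adjusted p = 7.08e-09), and all 3 of its probe sets were called higher.

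The largest falls were those of Cidea and Hsd3b5, described with their groups below, and of Tff3, a secreted trefoil peptide. The signal of Tff3 ran from 6.51 to 10.26 in the control mice (median 8.88) and from 3.81 to 6.13 in the restricted mice (median 5.03), so that the restricted group lay below 6.71, the mean of the median log2 signals of all 96 arrays, and its fall of 3.59 ± 0.46 (adjusted p = 6.92e-09) has an uncertain size. Inhba, a subunit of activin, fell by 2.84 ± 0.52 (adjusted p = 7.23e-05), Spon2, a secreted matrix protein, by 2.60 ± 0.47 (adjusted p = 5.12e-05) and Ly6d, a membrane protein anchored by a lipid, by 2.48 ± 0.52 (adjusted p = 0.00075). The restricted group mean was also below the array median in Inhba, Spon2, Ly6d and in Crygf, a lens crystallin gene (-2.33), and for Inhba and Spon2 only 1 of the 2 probe sets was called lower. Ccl2, a chemokine that attracts monocytes, ran from 6.37 to 7.57 in the control mice (median 6.60) and from 2.05 to 6.37 in the restricted mice (median 4.71), and differed by -2.36 ± 0.54 (adjusted p = 0.0026). The control mice themselves were at the level of the array median for Ccl2, so this difference is one between a low and a very low signal.

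**Figure D2:**
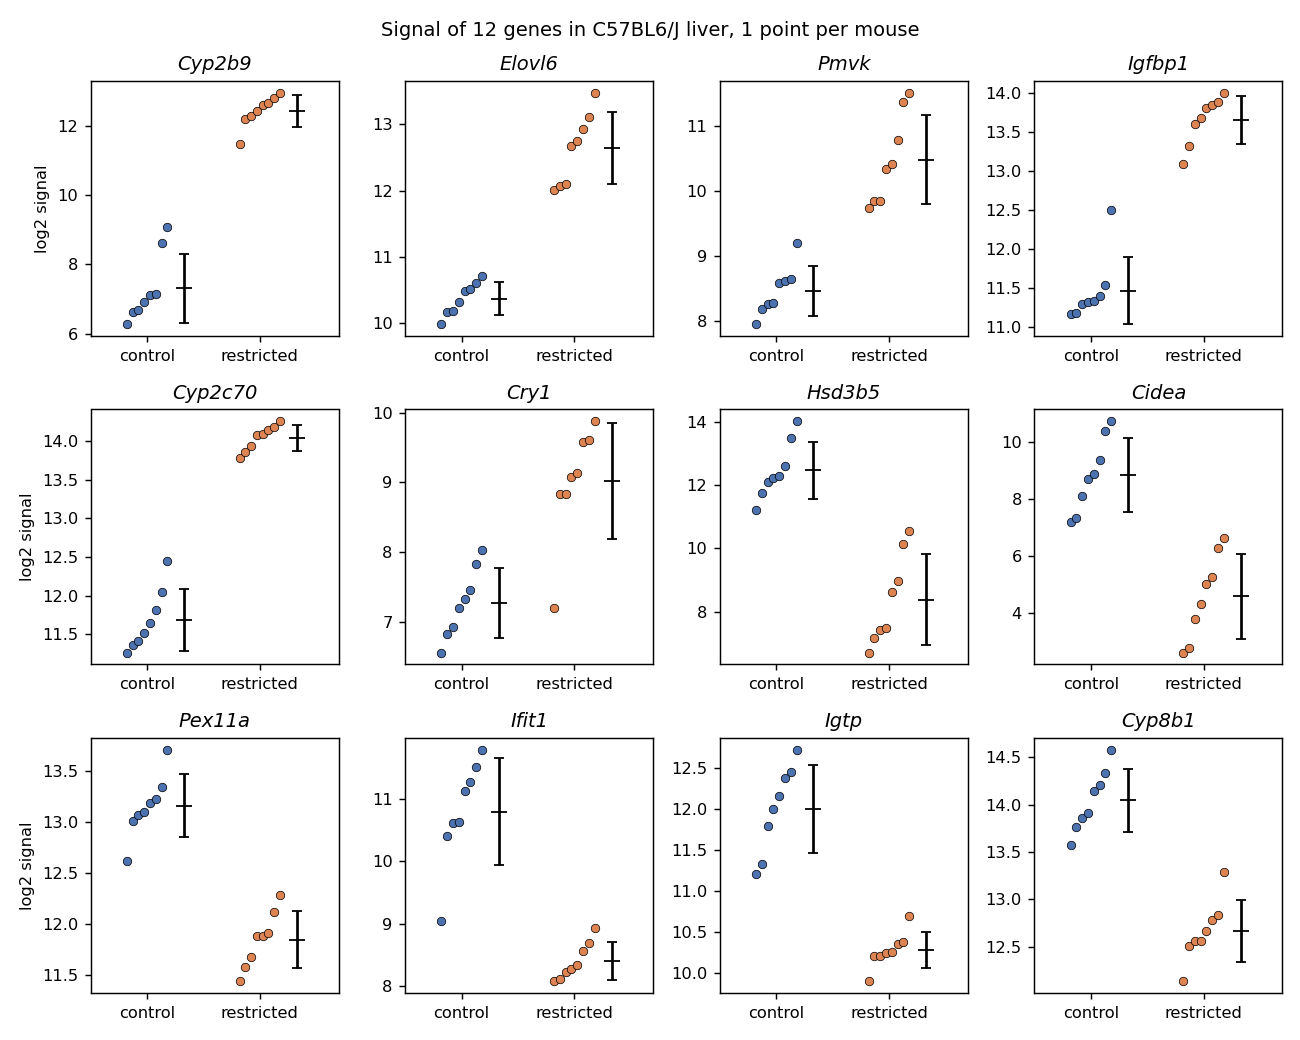
Log2 signal of 12 genes in each C57BL6/J mouse, with 8 control mice in blue and 8 restricted mice in orange, sorted by value within each group. Bars show the group mean and SD. The groups do not overlap in 11 of the 12 genes; in Cry1 1 restricted mouse lies at 7.20, within the control range.

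Main enzymes of fatty acid and triglyceride synthesis rose. Of 23 measured members of the list, 9 were called higher and 0 lower, against 1.86% called higher among all genes, and the median difference of the list was 0.56, against -0.02 over all genes. With the 16 arrays fitted alone the list had 15 members called higher and 1 lower. Over all 14816 genes that fit called 716 higher and 817 lower. Elovl6, which lengthens palmitate to stearate, ran from 9.97 to 10.71 in the control mice (median 10.40) and from 12.01 to 13.48 in the restricted mice (median 12.71). No restricted mouse reached down to the control range, and the rise was 4.84-fold (2.27 ± 0.36, adjusted p = 4.45e-06), with 2 of 3 probe sets called. Acaca, the cytosolic acetyl-CoA carboxylase that commits carbon to fatty acids, rose by 1.87 ± 0.31 (adjusted p = 7.97e-06), and Acacb, the mitochondrial form whose product restrains fatty acid import, rose by 2.74 ± 0.56 (adjusted p = 0.000494). Acss2, which makes acetyl-CoA from acetate, rose by 1.97 ± 0.36 (adjusted p = 6.16e-05) and Thrsp, a lipogenic protein induced by thyroid hormone and carbohydrate, by 2.05 ± 0.39 (adjusted p = 0.000164). In Acaca, Acss2 and Thrsp every restricted mouse was above every control mouse. Acly and Fasn, which make cytosolic acetyl-CoA and palmitate, were chosen here after their values were seen, and they rose by 1.57 ± 0.33 and 2.23 ± 0.58 (adjusted p = 0.000866 and 0.0109). Lpin1, a phosphatidate phosphatase on the way to triglyceride, ran from 9.22 to 12.21 in the control mice (median 10.23) and from 11.92 to 13.61 in the restricted mice (median 13.12). The highest control value for Lpin1 was that of replicate 1, and the rise of 2.61 ± 0.50 (adjusted p = 0.000171) was 3.01 (adjusted p = 2.87e-05) without both mice that stood apart.

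Srebf1, which codes for the SREBP1 factors that drive these lipogenic genes, rose 3.16-fold. It lay from 10.08 to 11.57 in the control mice (median 10.84) and from 11.22 to 12.91 in the restricted mice (median 12.63). The groups touched only through restricted replicate 2, which held the lowest restricted value, and the difference was 1.66 ± 0.29 (adjusted p = 3.32e-05) with all mice and 1.95 (adjusted p = 2.12e-06) without both mice that stood apart. Pklr, the liver pyruvate kinase that feeds glycolytic carbon into lipogenesis, rose by 1.31 ± 0.20 (adjusted p = 1.11e-06) with no overlap. Mogat1, an acyltransferase of triglyceride synthesis, stood on the other side of the list at -1.31 ± 0.44 and did not pass the test (adjusted p = 0.0769). It was called lower without both mice that stood apart, at -1.51 (adjusted p = 0.0388), and with the 16 arrays fitted alone (adjusted p = 0.000125).

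Part of the enzymes of cholesterol synthesis rose as well. Of 20 measured members, 7 were called higher and 0 lower, against 1.86% called higher among all genes, with a median difference of 0.46. Pmvk, phosphomevalonate kinase, ran from 7.95 to 9.20 in the control mice (median 8.43) and from 9.74 to 11.51 in the restricted mice (median 10.38), without overlap, and rose 4.04-fold (2.02 ± 0.26, adjusted p = 6.92e-09). Fdps, which makes farnesyl pyrophosphate, rose 5.29-fold (2.40 ± 0.53, adjusted p = 0.00152), and its groups did not overlap either. The later enzymes Nsdhl and Cyp51, which act on sterols, rose by 1.65 ± 0.29 (adjusted p = 3.01e-05) and 1.62 ± 0.33 (adjusted p = 0.000549), and Idi1 and Dhcr7 rose by 1.17 ± 0.33 and 1.24 ± 0.34 (adjusted p = 0.021 and 0.0213). The call of Idi1 was lost without both mice that stood apart, at 0.89 (adjusted p = 0.117). Srebf2, which codes for the main activator of this pathway, was at 7.52 to 9.33, median 8.22 in restricted mice and 7.36 to 9.66, median 8.19 in control mice, a difference of -0.03 ± 0.29 that did not pass the test (adjusted p = 0.993). Abcg5 and Abcg8, the paired transporters that export sterols into bile, rose by 1.0 ± 0.21 (adjusted p = 0.00103) and 1.04 ± 0.28 (adjusted p = 0.014).

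Several genes of lipid droplets were lower. Of 16 measured members of that list, 0 were called higher and 4 lower, against 1.85% called lower among all genes, with a median of -0.62. With the 16 arrays fitted alone 8 members were called lower, as were 817 of all 14816 genes. Cidea, a protein that fuses lipid droplets and is abundant in fatty liver and brown fat, ran from 7.19 to 10.74 in the control mice (median 8.79) and from 2.58 to 6.63 in the restricted mice (median 4.65). Every control mouse was above every restricted mouse, and the fall was 4.26 ± 0.77 (adjusted p = 5.44e-05), or 19.2-fold, a size that is uncertain because all restricted mice were below the array median of 6.71. Cidec, its relative that enlarges droplets, fell by 2.48 ± 0.40 (adjusted p = 4.72e-06), from 8.08 to 9.91, median 9.57, to 6.13 to 7.20, median 6.88. Mgll, monoacylglycerol lipase, fell by 1.29 ± 0.18 (adjusted p = 1.59e-07) with all 3 of its probe sets called, and Fitm1, a droplet-forming protein of the endoplasmic reticulum, by 1.45 ± 0.31 (adjusted p = 0.00107). The droplet coat genes Plin4 and Plin2 differed by -1.58 ± 0.51 (adjusted p = 0.0675) and -0.64 ± 0.22 (adjusted p = 0.0962) and did not pass the test, and Plin2 passed it with the 16 arrays fitted alone (adjusted p = 0.0113). The 2 adipocyte markers above the array median were Car3 and Fabp4, of which Car3, which the male mouse liver itself expresses, fell by 0.62 ± 0.12 (adjusted p = 0.000116) on its brightest probe set and Fabp4 differed by 0.51 ± 0.29 (adjusted p = 0.481). All 4 probe sets of Car3 were called lower, and the other three gave falls of 1.16, 2.60 and 3.18, so the size of its fall depends on the probe set.

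**Figure D3:**
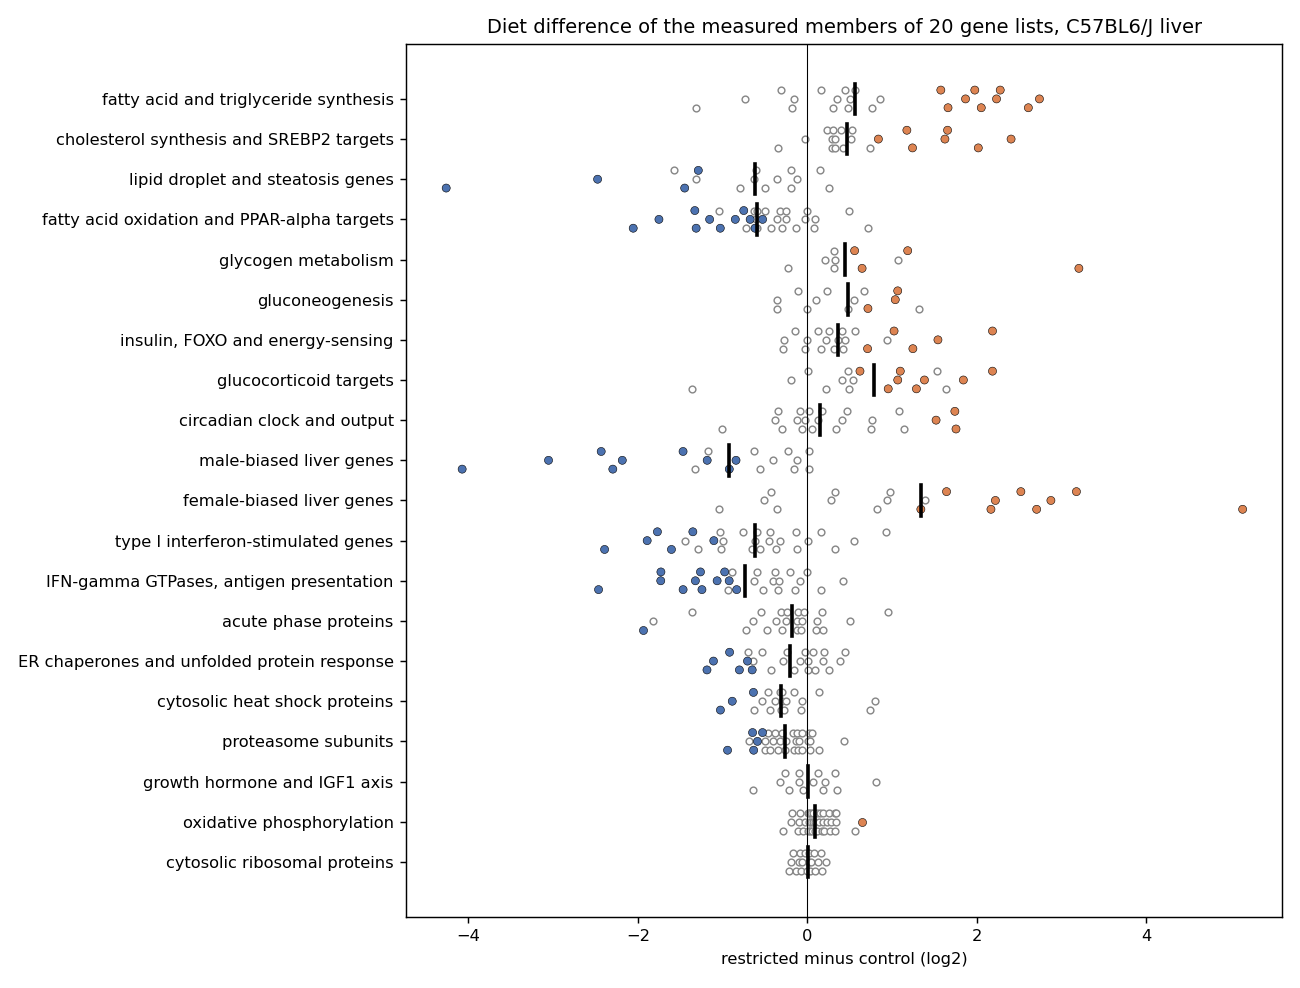
Difference of restricted minus control (log2) for each measured member of 20 gene lists, 1 point per gene. Filled points were called, orange higher and blue lower, open points were not called, and black bars are list medians, which run from -0.92 for male-biased genes to 1.34 for female-biased genes.

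Part of the genes of fatty acid oxidation and of the targets of PPAR-alpha fell, and none rose past the threshold. Of 31 measured members 0 were called higher and 11 lower, against 1.85% called lower among all genes, with a median of -0.60. With the 16 arrays fitted alone, where 817 of all 14816 genes were called lower, 20 members were called lower and 1 higher. With arrays centred on their 75th percentile 7 were called. Pex11a, which divides peroxisomes, ran from 12.62 to 13.71 in the control mice (median 13.15) and from 11.44 to 12.28 in the restricted mice (median 11.88). Its groups did not overlap and both of its probe sets were called, with a fall of 1.31 ± 0.22 (adjusted p = 6.75e-06). Cyp4a31, a fatty acid hydroxylase, fell 3.37-fold (-1.75 ± 0.28, adjusted p = 3.63e-06), with 1 of 2 probe sets called. The thioesterases Acot1 and Acot2, in the cytosol and in mitochondria, fell by 2.06 ± 0.45 (adjusted p = 0.00147) and 1.03 ± 0.21 (adjusted p = 0.000417), and Eci1, a mitochondrial isomerase of unsaturated fatty acids, fell by 0.85 ± 0.19 (adjusted p = 0.00134). Vnn1, a pantetheinase induced by PPAR-alpha, fell by 1.15 ± 0.26 (adjusted p = 0.00243). Fgf21, the fasting hormone of the liver, ran from 8.36 to 9.84 in the control mice (median 8.99) and from 6.80 to 8.34 in the restricted mice (median 7.68) and fell by 1.33 ± 0.35 (adjusted p = 0.0122), with no overlap. Ppara itself and Cpt1a, which loads fatty acids for transport into mitochondria, differed by -0.01 ± 0.28 (adjusted p = 0.997) and 0.08 ± 0.24 (adjusted p = 0.972). Restricted replicate 2 was the lowest restricted mouse for both, at 11.98 and 12.65, and without both mice that stood apart the differences were 0.23 (adjusted p = 0.829) and 0.32 (adjusted p = 0.641).

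Some genes of glycogen metabolism rose, with 4 of 10 measured members called higher, 0 lower and a median of 0.44. Among all genes 1.86% were called higher and 1.85% lower. Ppp1r3g, a subunit that brings protein phosphatase 1 to glycogen after feeding, ran from 5.89 to 8.37 in the control mice (median 7.33) and from 9.97 to 11.26 in the restricted mice (median 10.67). It rose 9.21-fold (3.20 ± 0.42, adjusted p = 2.60e-08), and the lowest restricted mouse was above the highest control mouse. Gys2, liver glycogen synthase, rose by 1.18 ± 0.24 (adjusted p = 0.000452) and Pygl, liver glycogen phosphorylase, by 0.64 ± 0.17 (adjusted p = 0.0132), so that genes of both building and breaking of glycogen were among the calls. In gluconeogenesis 3 of 13 members were called higher and 0 lower. Slc37a4 and G6pc, the transporter and the enzyme that release free glucose, rose by 1.04 ± 0.18 (adjusted p = 4.26e-05) and 1.07 ± 0.32 (adjusted p = 0.0361). The G6pc groups did not overlap, at 11.97 to 13.34, median 12.63 in control and 13.48 to 14.14, median 13.62 in restricted mice, and its call was lost when any of 9 single mice was left out. Pck1 and its co-activator Ppargc1a differed by 0.48 ± 0.28 (adjusted p = 0.499) and 0.67 ± 0.21 (adjusted p = 0.0559) and were not called, and Ppargc1a was called without both mice that stood apart at 0.80 (adjusted p = 0.0192). Another probe set of Ppargc1a was called, at 1.04 (limma, adjusted p = 0.00931 over all probe sets), and so was the mean of its probe sets. In glycolysis 3 of 11 members were called higher and 1 lower, the latter being Ldha, lactate dehydrogenase A, with -0.88 ± 0.21 (adjusted p = 0.00354).

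Several genes of insulin and FOXO signalling were higher. In the list of insulin, FOXO and energy-sensing genes 5 of 21 measured members were called higher and 0 lower, with a median of 0.36. Among all genes 1.86% were called higher. Without both mice that stood apart 8 members of this list were called higher. Igfbp1, a secreted binding protein of insulin-like growth factors, ran from 11.16 to 12.49 in the control mice (median 11.33) and from 13.08 to 13.999 in the restricted mice (median 13.73). Its rise of 2.18 ± 0.33 (adjusted p = 8.54e-07) was free of overlap although control replicate 1 held the highest control value. Foxo3 and Foxo1 rose by 1.24 ± 0.27 (adjusted p = 0.00146) and 1.02 ± 0.27 (adjusted p = 0.0121), and the Foxo1 call was lost with the 16 arrays fitted alone (adjusted p = 0.0548). It was also lost with the mean of the Foxo1 probe sets, of which the others gave 0.71, 0.72 and -0.42 and were not called. Ddit4 and Sesn3, which restrain mTORC1 signalling, rose by 1.54 ± 0.35 (adjusted p = 0.00243) and 0.71 ± 0.20 (adjusted p = 0.0226). Among genes of amino acid breakdown, 3 of 24 were called higher and 0 lower, namely Prodh for proline (1.27 ± 0.20, adjusted p = 3.87e-06), Tat for tyrosine (1.38 ± 0.34, adjusted p = 0.00636) and Ass1 of the urea cycle (1.30 ± 0.37, adjusted p = 0.0244). With the 16 arrays fitted alone 8 members of that list were called higher, as were 716 of all 14816 genes. Control replicate 1 held the highest Ass1 value of all 16 mice, 10.47, and without both mice that stood apart the Ass1 difference was 1.74 (adjusted p = 0.000845).

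In the list of sirtuins and NAD metabolism 2 of 20 members were called, both higher (10%, against 3.71% of all genes). Nnmt, which methylates nicotinamide, ran from 10.77 to 12.65 in the control mice (median 11.72) and from 12.92 to 14.07 in the restricted mice (median 13.29). The rise was 3.12-fold (1.64 ± 0.40, adjusted p = 0.00536), without overlap. Nadsyn1, an NAD synthetase, rose by 0.71 ± 0.17 (adjusted p = 0.00378). Sirt1, a deacetylase that uses NAD, was at 8.53 to 9.19, median 8.77 in control mice and at 8.87 to 9.55, median 9.27 in restricted mice, and its difference of 0.39 ± 0.29 did not pass the test (adjusted p = 0.692). The growth hormone and IGF1 axis had 0 calls among 14 measured members and a median of 0.01. Igf1 ran from 14.12 to 14.46 in the control mice (median 14.24) and from 13.83 to 14.43 in the restricted mice (median 14.22), a difference of -0.10 ± 0.25 (adjusted p = 0.967), and Ghr, the growth hormone receptor, differed by 0.12 ± 0.19 (adjusted p = 0.925). Igfals, which carries IGF1 in blood, was at -0.64 ± 0.23 (adjusted p = 0.127) and was called lower with the 16 arrays fitted alone (adjusted p = 0.0151).

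Sex-biased genes of the liver shifted in opposite directions. Of 19 measured male-biased genes 0 were called higher and 9 lower, with a median of -0.92, and of 19 measured female-biased genes 9 were called higher and 0 lower, with a median of 1.34. Among all genes 1.86% were called higher and 1.85% lower. All mice were male. Hsd3b5, a keto-steroid reductase of the male liver, ran from 11.23 to 14.02 in the control mice (median 12.25) and from 6.70 to 10.56 in the restricted mice (median 8.06). It fell 16.8-fold (-4.07 ± 0.50, adjusted p = 3.82e-09), and every restricted mouse was below every control mouse. Cyp4a12a, the main arachidonate hydroxylase of the male liver, fell 8.31-fold (-3.06 ± 0.51, adjusted p = 1.21e-05), also without overlap. Slco1a1, an uptake transporter of organic anions, fell by 2.18 ± 0.30 (adjusted p = 5.07e-08) with both probe sets called, Serpina12, also called vaspin, by 2.43 ± 0.41 (adjusted p = 1.50e-05), Serpina4-ps1, a pseudogene of the serpin family, by 2.30 ± 0.55 (adjusted p = 0.00512) and Elovl3, a fatty acid elongase, by 1.47 ± 0.25 (adjusted p = 2.00e-05). On the female-biased side, besides Cyp2b9 and Slc22a27, Cyp39a1, an oxysterol hydroxylase, ran from 8.47 to 10.66 in the control mice (median 9.19) and from 10.84 to 11.95 in the restricted mice (median 11.71) and rose 4.49-fold (2.17 ± 0.26, adjusted p = 1.22e-09). Hao2, a peroxisomal oxidase, and Sult1e1, the oestrogen sulfotransferase, rose by 2.87 ± 0.68 (adjusted p = 0.00377) and 2.70 ± 0.66 (adjusted p = 0.00557) from control means below the array median. Cyp2b13 shares close sequence with Cyp2b9, and probe sets of such P450 relatives may read each other's transcripts. The difference of Cyp2b13 was 2.52 ± 0.68 (adjusted p = 0.0148), with every control mouse below the array median, at 2.03 to 5.71. Its restricted mice ran from 5.40 to 8.32, so the groups overlapped and the size is uncertain.

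Targets of glucocorticoids were higher where they were called. Of 18 measured members 8 were called higher and 0 lower, against 1.86% called higher among all genes, with a median of 0.79. Besides Igfbp1 and Tat, the metallothioneins Mt2 and Mt1, which bind zinc, rose by 1.84 ± 0.41 (adjusted p = 0.00206) and 1.29 ± 0.34 (adjusted p = 0.014). Klf9, a transcription factor induced by glucocorticoids and thyroid hormone, ran from 12.27 to 12.85 in the control mice (median 12.57) and from 13.004 to 13.89 in the restricted mice (median 13.65), without overlap, and its rise was 0.95 ± 0.22 (adjusted p = 0.00253). The array holds 7 kept probe sets for Klf9, of which 1 was called higher and 1 lower, and with the mean of its probe sets the call was lost. Tsc22d3, an anti-inflammatory target also called Gilz, rose by 1.10 ± 0.33 (adjusted p = 0.0374), a call that was lost in 10 of 16 fits with 1 mouse left out. Lcn2, an acute-phase gene that is also on this list, differed by -1.37 ± 0.62 (adjusted p = 0.3).

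Among 22 measured genes of the circadian clock and its output 3 were called higher and 0 lower (13.6%, against 3.71% of all genes). Cry1, a repressor in the core loop, ran from 6.55 to 8.03 in the control mice (median 7.26) and from 7.20 to 9.88 in the restricted mice (median 9.11). All restricted mice but replicate 2 were above the control range, and the rise was 3.37-fold (1.75 ± 0.38, adjusted p = 0.00133). Noct, a phosphatase with a strong daily rhythm, rose by 1.74 ± 0.37 (adjusted p = 0.000808) and Usp2, a deubiquitinase under clock control, by 1.52 ± 0.31 (adjusted p = 0.000532). Per2, another repressor, was at 7.41 to 9.67, median 8.43 in control mice and at 7.51 to 10.10, median 9.84 in restricted mice. Its difference of 1.09 ± 0.41 was not called (adjusted p = 0.146), and without both mice that stood apart it was 1.55 (adjusted p = 0.0125). Arntl, the activator also called Bmal1, was at 6.67 to 8.69, median 7.03 in control and 4.16 to 8.34, median 7.16 in restricted mice, and Dbp, an output factor, at 10.80 to 12.54, median 12.20 and 11.53 to 12.22, median 12.07, with differences of -0.30 ± 0.53 (adjusted p = 0.944) and -0.06 ± 0.26 (adjusted p = 0.984). Without both mice that stood apart 6 clock genes were called higher and 0 lower. Since the hour of collection is not given in the labels, a change in mean level and a change in daily timing cannot be told apart.

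The E-box CACGTG, the site bound by the clock activators, was searched on both strands in the 250 bases before gene starts of RefSeq (build GRCm38.p6), where it occurs in 1854 of 27025 genes (6.86%). It occurs in 5 of the 19 clock genes that the table holds, and of the 3 called clock genes 1 does, namely Cry1. The stretch before the start of Cry1 (chr10:85185055-85185304, minus strand), written 5' to 3' in the direction of the gene with the E-box in capitals, is shown because Cry1 is the core clock gene that was called:
Cry1: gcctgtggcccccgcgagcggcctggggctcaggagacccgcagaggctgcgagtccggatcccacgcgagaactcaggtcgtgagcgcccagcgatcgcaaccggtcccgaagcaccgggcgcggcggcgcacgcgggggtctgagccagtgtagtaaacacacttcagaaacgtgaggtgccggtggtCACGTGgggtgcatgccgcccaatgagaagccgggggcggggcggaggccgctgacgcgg
The match begins 60 bases before the start. It is a description of the letters and shows no binding.

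Part of the interferon-stimulated genes were lower in restricted mice. Of 27 measured genes of the type I interferon list 0 were called higher and 6 lower (median -0.62), and of 26 measured genes of the list of interferon-gamma inducible GTPases and antigen presentation 0 were called higher and 11 lower (median -0.73), against 1.85% called lower among all genes. With the 16 arrays fitted alone 15 and 18 members were called lower, as were 817 of all 14816 genes. Ifit1, which binds foreign RNA caps, ran from 9.04 to 11.79 in the control mice (median 10.87) and from 8.08 to 8.93 in the restricted mice (median 8.31). Control replicate 1 was the lowest control mouse by far but still above every restricted mouse, and the fall was 2.39 ± 0.33 (adjusted p = 8.82e-08), or 5.25-fold. Usp18, which removes ISG15 from proteins, fell by 1.77 ± 0.22 (adjusted p = 3.82e-09), and Ifit3 by 1.60 ± 0.22 (adjusted p = 7.20e-08), each with an overlap made by control replicate 1. Irf9, the DNA-binding part of the interferon-activated factor ISGF3, and Rsad2, the antiviral enzyme viperin, fell by 1.10 ± 0.19 (adjusted p = 2.37e-05) and 1.35 ± 0.29 (adjusted p = 0.000811). Igtp, a GTPase that acts on vacuoles of pathogens, ran from 11.21 to 12.72 in the control mice (median 12.08) and from 9.89 to 10.69 in the restricted mice (median 10.24). Every control mouse was above every restricted mouse, and it fell 3.32-fold (-1.73 ± 0.21, adjusted p = 2.90e-09). Its relatives Irgm1, Ifi47 and Iigp1 fell by 1.32 ± 0.20 (adjusted p = 5.75e-07), 1.73 ± 0.25 (adjusted p = 3.92e-07) and 0.98 ± 0.20 (adjusted p = 0.000463), and Gbp6, a guanylate-binding protein, by 2.46 ± 0.32 (adjusted p = 1.52e-08). These GTPase families hold close relatives whose probe sets may share transcripts. Of the class II antigen-presenting genes H2-Eb1 and its partner Cd74 fell by 1.07 ± 0.28 (adjusted p = 0.0142) and 1.24 ± 0.35 (adjusted p = 0.0215).

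The core of the interferon-stimulated response element, TTTCNNTTT, was searched on both strands in the same windows, since its factors include Irf9 of the called genes. It occurs in 2915 of 27025 genes (10.8%), in 12 of the 19 type I genes in the table (63.2%) and in 10 of the 21 genes of the interferon-gamma list (47.6%). Of the called members in the table, 3 of 4 and 6 of 8 hold it. The windows of 3 called genes are shown in the direction of the gene with each match in capitals, namely Ifit1 (chr19:34640639-34640888, plus strand), Igtp (chr11:58199306-58199555, plus strand) and Irgm1 (chr11:48871421-48871670, minus strand) of GRCm38.p6, since they span the type I and the GTPase group:
Ifit1: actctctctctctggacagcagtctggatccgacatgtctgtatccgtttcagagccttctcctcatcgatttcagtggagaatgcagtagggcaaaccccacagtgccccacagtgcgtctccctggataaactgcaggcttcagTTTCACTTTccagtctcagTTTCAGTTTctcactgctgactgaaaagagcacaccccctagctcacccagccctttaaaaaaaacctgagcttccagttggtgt
Igtp: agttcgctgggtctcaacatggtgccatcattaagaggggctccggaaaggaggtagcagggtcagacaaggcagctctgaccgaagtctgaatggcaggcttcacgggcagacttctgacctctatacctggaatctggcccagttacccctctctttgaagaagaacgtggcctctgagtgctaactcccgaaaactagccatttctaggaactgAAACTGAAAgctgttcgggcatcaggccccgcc
Irgm1: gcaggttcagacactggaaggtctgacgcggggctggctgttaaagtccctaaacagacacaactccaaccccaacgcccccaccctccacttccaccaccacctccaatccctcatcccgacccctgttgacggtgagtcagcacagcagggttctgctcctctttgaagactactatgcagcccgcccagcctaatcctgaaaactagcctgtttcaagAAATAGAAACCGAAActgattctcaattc
In Ifit1 the 2 matches begin 104 and 85 bases before the start. In Irgm1 the 2 matches overlap and begin 29 and 23 bases before the start, and the match of Igtp begins 33 bases before it. The lists were named for interferon response and so the share of matches is no independent evidence. The same search for the sterol element TCACNCCAC found 1 of 16 cholesterol genes (331 of all 27025 genes) and none of the 6 called ones, and the heat shock element TTCNNGAA was found in 4 of 18 heat shock genes (2193 of all) and in neither called one.

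Markers of Kupffer cells were set beside the interferon genes. Their mean over 14 genes was 10.25 ± 0.54 (SD) in control mice, with a range of 9.06 to 10.96, and 9.65 ± 0.47 in restricted mice, with a range of 9.10 to 10.49 (two-sided exact permutation p = 0.0362, adjusted p = 0.127). The summed linear signal of the 14 markers ran from 11998 to 51712 with a median of 30124 in control mice and from 12473 to 36605 with a median of 17857 in restricted mice. Of the 14 markers 1 was called, C1qb, a complement subunit made by macrophages, which differed by -1.0 ± 0.28 (adjusted p = 0.0235), and none lay below the array median in both groups. The mean of the interferon-gamma list, in turn, ran from 10.54 to 11.40 in control mice and from 10.15 to 10.54 in restricted mice, and that of the type I list from 8.17 to 9.34 and from 8.07 to 8.38. Control replicate 1 was the lowest control mouse in each of these 3 measures. In whole liver, fewer cells of a type and less RNA per cell cannot be told apart, and the part of Kupffer cells in the fall of the interferon genes was not tested. Markers of neutrophils, with 4 of 6 genes below the array median in both groups, were also lower (6.18 ± 0.42 against 5.53 ± 0.37, SD, exact permutation p = 0.00559, adjusted p = 0.0392), and their summed signal had medians of 639 and 395. All 7 measured markers of T and NK cells were below the array median in both groups.

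**Figure D4:**
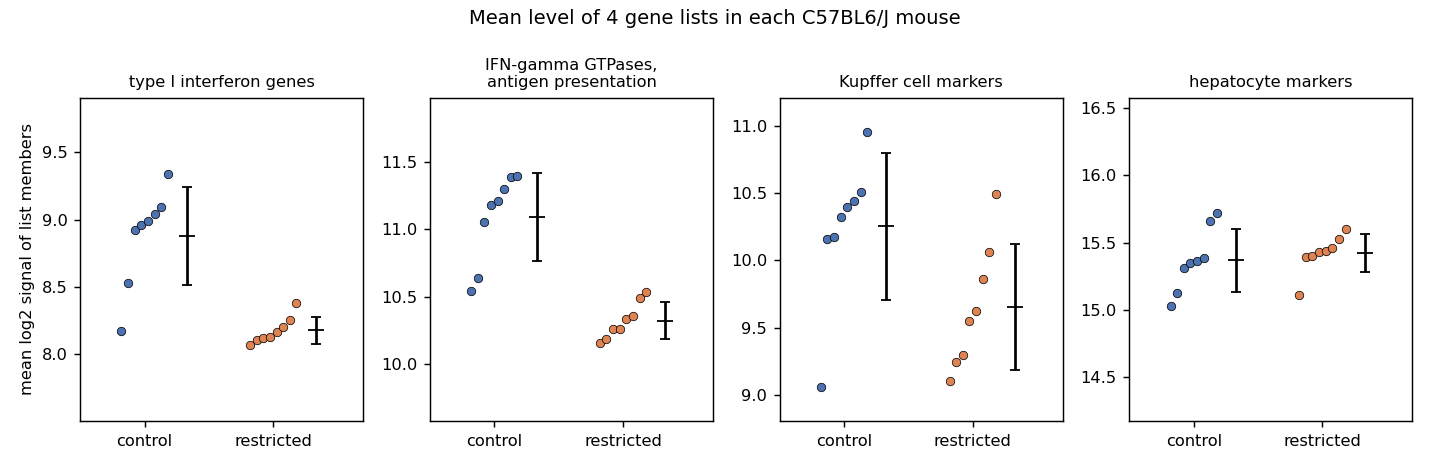
Mean log2 signal over the members of 4 gene lists in each C57BL6/J mouse, 8 control (blue) and 8 restricted (orange) sorted by value, with group mean and SD. Each vertical axis spans the same number of log2 units. The type I interferon means reach 9.34 in control mice and 8.38 in restricted mice, while the hepatocyte means overlap.

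The acute phase list had a smaller share called (4.17%) than the complement and coagulation list (17.9%), against 3.71% of all genes. Of 24 acute phase genes 1 was called, lower. With the 16 arrays fitted alone 6 were called lower, as were 817 of all 14816 genes. Saa1, serum amyloid A, ran from 11.75 to 14.004 in the control mice (median 12.98) and from 9.91 to 11.76 in the restricted mice (median 10.61) and fell by 1.95 ± 0.58 (adjusted p = 0.0387), a call that was lost in 10 of 16 fits with 1 mouse left out. The Saa1 and Saa2 transcripts are near-identical, so their split is uncertain, and Saa2 differed by -1.82 ± 0.68 (adjusted p = 0.145). Of 28 complement and coagulation genes 5 were called lower and 0 higher. C9, which forms the pore of the complement attack complex, ran from 13.29 to 14.23 in the control mice (median 14.11) and from 12.73 to 13.23 in the restricted mice (median 13.03) and fell by 1.01 ± 0.19 (adjusted p = 0.000109), without overlap, and C8b, C8a and C6 of the same complex fell by 0.85 ± 0.20 (adjusted p = 0.00422), 0.84 ± 0.22 (adjusted p = 0.0138) and 0.92 ± 0.28 (adjusted p = 0.0384). The C6 call was lost in 9 of 16 fits with 1 mouse left out and, without both mice that stood apart, at -0.70 (adjusted p = 0.167). With arrays centred on their 75th percentile the calls of Saa1, C8b, C8a and C6 were lost. C8a and C6 are also on the male-biased list.

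Of the 23 measured genes of the bile acid list 0 were called higher and 4 lower, against 1.86% and 1.85% of all genes. The list leaves out Cyp2c70 and Cyp39a1, which rose by 2.35 and 2.17. Cyp8b1, which sets the share of cholic acid, ran from 13.57 to 14.58 in the control mice (median 14.03) and from 12.13 to 13.29 in the restricted mice (median 12.61). The groups did not overlap and the fall was 1.38 ± 0.23 (adjusted p = 6.28e-06). Acox2 and Hsd3b7, enzymes that process the side chain and the sterol ring, fell by 0.80 ± 0.19 (adjusted p = 0.00471) and 0.62 ± 0.18 (adjusted p = 0.0304). Cyp7a1, the rate-limiting enzyme, was at 12.64 to 13.78, median 12.95 in control mice and 12.26 to 13.42, median 12.66 in restricted mice, a difference of -0.32 ± 0.26 that did not pass the test (adjusted p = 0.745). Among conjugating enzymes 6 of 26 were called higher and 2 lower. Besides Gstm3, the glutathione S-transferases Gsta2 and Gsta4 rose 3.09-fold (1.63 ± 0.29, adjusted p = 5.96e-05) and 2.71-fold (1.44 ± 0.31, adjusted p = 0.000955). Of 22 genes on the list of NRF2 targets and antioxidant enzymes 0 were called higher and 4 lower (18.2%, against 3.71% of all genes). That list holds none of Gstm3, Gsta2 and Gsta4. The lower genes include Gclc and Gclm, the 2 subunits that start glutathione synthesis, with falls of 0.80 ± 0.23 (adjusted p = 0.0255) and 0.78 ± 0.19 (adjusted p = 0.00582). They also include Keap1, the inhibitor of NRF2, with a fall of 0.52 ± 0.11 (adjusted p = 0.00107). The call of Gclc was lost without both mice that stood apart, at -0.68 (adjusted p = 0.0843). With arrays centred on their 75th percentile the calls of Gclc and Gclm were both lost. Another probe set of each gene gave -0.42 and -0.45 and was not called. Apoa4, a lipoprotein component that follows liver fat, fell by 0.78 ± 0.18 (adjusted p = 0.0031), and Csad, which makes taurine for bile acid conjugation, by 1.69 ± 0.27 (adjusted p = 5.21e-06).

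Genes of protein folding and breakdown were lower where they were called. Of 24 genes of the endoplasmic reticulum list 6 were called lower and 0 higher, of 20 cytosolic heat shock genes 3 lower and 0 higher, and of 32 proteasome subunits 5 lower and 0 higher, with medians of -0.20, -0.31 and -0.26. The share over all genes was 1.85% called lower and 1.86% called higher. With the 16 arrays fitted alone these lists had 10, 9 and 10 genes lower and 1, 1 and 0 higher. Over all 14816 genes that fit called 817 lower and 716 higher. Manf, a secreted chaperone of the unfolded protein response, fell by 1.19 ± 0.23 (adjusted p = 0.000152), from 11.84 to 12.44, median 12.30, to 10.65 to 11.38, median 11.03. Hspa5, the main chaperone of the endoplasmic reticulum, fell by 0.80 ± 0.21 (adjusted p = 0.0138) and Hsp90aa1, the inducible form of cytosolic HSP90, by 1.03 ± 0.22 (adjusted p = 0.00118). Psmd1, a base subunit of the proteasome cap, fell by 0.94 ± 0.19 (adjusted p = 0.000319) and Sqstm1, the autophagy receptor p62, by 0.77 ± 0.19 (adjusted p = 0.00636). Atf5, a factor of the mitochondrial stress response, ran from 11.74 to 13.50 in the control mice (median 12.59) and from 10.68 to 11.25 in the restricted mice (median 11.11) and fell 3.06-fold (-1.61 ± 0.25, adjusted p = 1.70e-06) without overlap. Several of these small changes depended on scaling. When arrays were centred on their 75th percentile, 2 genes of the endoplasmic reticulum list, 1 heat shock gene and 1 proteasome gene were called, and the calls of Hspa5, Sqstm1, Acox2, Ldha and Lipa (-0.53), the lysosomal acid lipase, were lost.

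Other housekeeping groups showed few or no calls, against 3.71% called among all genes. Of 20 cytosolic ribosomal genes 0 were called by limma, with differences between -0.22 and 0.22, and of 27 genes of the cell cycle 0 were called. Of 38 genes of oxidative phosphorylation 1 was called, Ndufv1 of complex I (0.64 ± 0.18, adjusted p = 0.025). With the 16 arrays fitted alone 6 of these 38 were called higher, as were 716 of all 14816 genes. Among 14 liver transcription factors Foxa3, which regulates glucose transport genes in hepatocytes, was the 1 call, with a fall of 0.98 ± 0.18 (adjusted p = 0.000125). Of genes with a zone in the lobule, 2 of 12 periportal genes (16.7%) were called higher. Of 16 pericentral genes (12.5% called) 1 was called higher, Gstm3, and 1 lower, Cldn2, a tight junction protein (-0.89 ± 0.23, adjusted p = 0.00877). In the haem and iron list, Hamp2, a relative of hepcidin, rose by 1.64 ± 0.24 (adjusted p = 2.07e-07) on its brighter probe set, while the mean of its 2 probe sets gave -0.11, so its direction depends on the probe set. Kdr, a receptor of the liver endothelium for VEGF, rose by 0.91 ± 0.21 (adjusted p = 0.00302), and it was the 1 called gene of 15 endothelial markers. Dcn, a matrix protein of stellate cells, fell by 0.69 ± 0.18 (adjusted p = 0.0128), the 1 call of 14 stellate markers.

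The response of C57BL6/J was then set against the mean response of the other 5 strains, as a test of the difference itself. It was called for 103 genes (0.695%), 45 above (0.304%) and 58 below (0.391%) the other strains. The other strains include CBA/J, in which the array medians of restricted mice (6.99 to 7.50) lay above those of control mice (6.42 to 6.63) and 40.7% of genes were called. Without CBA/J 42 genes were called, of which 40 were among the 103. Another of the 5 is B6C3F1/J, whose samples are titled F1, and without it 315 genes were called, with 101 of the 103 kept. With arrays centred on their 75th percentile 28 of 48 calls lay above the other strains, while a fit that adjusted for array medians placed 64 of 300 above. Each difference named here is therefore given with and without CBA/J. Of the 550 genes called in C57BL6/J, 291 (52.9%) were also called with the same sign in 129S1/SvImJ, 211 (38.4%) in DBA/2J, 204 (37.1%) in CBA/J, 164 (29.8%) in B6C3F1/J and 104 (18.9%) in C3H/HeJ. Among all genes tested the shares called in either direction were 5.26%, 6.75%, 40.7%, 4.6% and 1.95% in these strains. In reverse the shared genes were 37.4%, 21.1%, 3.39%, 24% and 36% of each strain's own calls, in the same order. The calls in CBA/J were 3715 higher and 2308 lower, and 70 of the 550 were called there with the opposite sign. In each of the other strains 0 to 2 of the 550 were called with the opposite sign. All 6 strains shared the call and its sign for 26 genes, and for 125 no other strain did, though a gene that misses the threshold in a strain is not shown to differ there.

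Cyp26a1, Cyp2c70 and Cyp2b9 were among the genes above the other strains. The rise of Cyp26a1 in C57BL6/J stood against a mean of -0.13 elsewhere, a difference of 2.77 ± 0.36 (adjusted p = 2.34e-07) and of 2.67 (adjusted p = 1.27e-07) without CBA/J. For Cyp2c70 the rise of 2.35 compared with 1.58 in 129S1/SvImJ, 1.19 in B6C3F1/J and values from -0.15 to 0.24 in the other three, and the difference from the mean was 1.73 ± 0.24 (adjusted p = 1.09e-06), or 1.64 (adjusted p = 0.000146) without CBA/J. Of the 23 genes of the bile acid list, to which Cyp2c70 does not belong, 0 lay above the other strains and 1, Cyp8b1, lay below. Cyp2b9 rose more in C57BL6/J than in the mean of the others by 3.26 ± 0.67 (adjusted p = 0.00379), with DBA/2J the nearest at 4.01, and without CBA/J by 3.18 (adjusted p = 0.0289). Its control mean was 7.31 in C57BL6/J, against 12.22 in B6C3F1/J, 11.46 in C3H/HeJ and 10.13 in CBA/J. Lepr exceeded the other strains by 1.69 ± 0.33 (adjusted p = 0.00143), with B6C3F1/J at 1.88, and without CBA/J by 1.41 (adjusted p = 0.0413). Klf9 rose in C57BL6/J and had a mean of -0.23 elsewhere, a difference of 1.19 ± 0.24 (adjusted p = 0.00257) that was 1.32 (adjusted p = 0.00397) without CBA/J. The clock genes Noct and Cry1 exceeded the others by 1.88 ± 0.40 (adjusted p = 0.00518) and 1.82 ± 0.42 (adjusted p = 0.0124), and Foxo3 by 1.23 ± 0.30 (adjusted p = 0.0225). Without CBA/J these were 1.83 (adjusted p = 0.0339), 1.60 (adjusted p = 0.122) and 1.18 (adjusted p = 0.0705), so that the calls of Cry1 and Foxo3 were lost. Clec2d, a lectin-like ligand of NK cell receptors, and Tmem14a, a mitochondrial membrane protein, exceeded the others by 1.68 ± 0.34 and 1.40 ± 0.27. Tsc22d3 and Ttc39a did so by 1.63 ± 0.36 and 1.46 ± 0.36. The call of Tsc22d3 was lost without CBA/J at 1.32 (adjusted p = 0.128). Clec2d, Tmem14a and Ttc39a were 1.59 (adjusted p = 0.0251), 1.23 (adjusted p = 0.0279) and 1.62 (adjusted p = 0.0347) without CBA/J. All C57BL6/J control mice lay below the array median of 6.71 for Ttc39a, at 1.96 to 6.25. Its restricted mice ran from 6.22 to 7.09, so the size of its difference is uncertain. The diet call of Tmem14a itself was lost without both mice that stood apart, at 0.79 (adjusted p = 0.0571).

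Cidec, Cyp8b1 and part of the interferon genes were among those below the other strains. Cidea fell in C57BL6/J while its mean difference elsewhere was 0.71, a difference of -4.97 ± 0.85 (adjusted p = 0.000172) and of -4.79 (adjusted p = 0.000779) without CBA/J. In the other strains its group means ran from 3.41 to 5.80, all below the array median of 6.71, against 8.84 in C57BL6/J control mice. A fall from such levels could hardly be measured, so a different response of C57BL6/J and the higher level in its control mice cannot be told apart for Cidea. For Cidec the mean elsewhere was 0.23 and the difference -2.70 ± 0.44 (adjusted p = 6.33e-05), with values from -0.93 in 129S1/SvImJ to 1.59 in CBA/J, and without CBA/J the difference was -2.36 (adjusted p = 0.00045). Control means of Cidec elsewhere ran from 5.85 to 7.72, against 9.32 in C57BL6/J. Tff3 and Ccl2 lay -3.44 ± 0.50 (adjusted p = 3.86e-06) and -3.20 ± 0.59 (adjusted p = 0.00085) from the others, and -3.15 (adjusted p = 0.00045) and -2.79 (adjusted p = 0.00707) without CBA/J, with C57BL6/J restricted means below the array median in both. Cyp8b1 fell by 1.38 ± 0.23 against 0.02 elsewhere, a difference of -1.40 ± 0.25 (adjusted p = 0.000349), and 129S1/SvImJ was the nearest strain at -1.15. Without CBA/J the Cyp8b1 difference was -1.14 (adjusted p = 0.0312). Lcn2, the guanylate-binding protein gene Gbp2b and Spon2 lay -2.60 ± 0.68 (adjusted p = 0.0403), -2.06 ± 0.50 (adjusted p = 0.0223) and -1.91 ± 0.51 (adjusted p = 0.0487) from the others and were lost without CBA/J at -2.54 (adjusted p = 0.138), -1.61 (adjusted p = 0.212) and -1.76 (adjusted p = 0.137). The diet difference of Gbp2b was -1.25 ± 0.46 (adjusted p = 0.13) with all mice and was called without both mice that stood apart, at -1.54 (adjusted p = 0.0416). Lcn2 and Spon2 were also lost without both C57BL6/J mice that stood apart, at -2.36 (adjusted p = 0.0759) and -1.85 (adjusted p = 0.0628), as was Cyp4a31, from -1.17 ± 0.31 (adjusted p = 0.0403) to -0.95 (adjusted p = 0.119). Without CBA/J Cyp4a31 was -0.81 (adjusted p = 0.535). Of the interferon lists 4 of 27 type I genes and 9 of 26 genes of the interferon-gamma list lay below the other strains, and 0 above. Without CBA/J these counts were 1 and 4. Ifi47 differed from the others by -1.38 ± 0.28 (adjusted p = 0.00257), Usp18 by -1.27 ± 0.24 (adjusted p = 0.00125) and Igtp by -1.0 ± 0.23 (adjusted p = 0.0144), and these remained called without CBA/J at -1.32 (adjusted p = 0.00881), -1.16 (adjusted p = 0.0251) and -0.95 (adjusted p = 0.0413). Gbp6, Ifit3 and Irgm1 lay -1.38 ± 0.36 (adjusted p = 0.0351), -1.04 ± 0.24 (adjusted p = 0.0144) and -0.82 ± 0.22 (adjusted p = 0.0403) from the others and were lost without CBA/J at -1.31 (adjusted p = 0.145), -0.89 (adjusted p = 0.165) and -0.79 (adjusted p = 0.137). The class II genes H2-Eb1 and Cd74 had means of 0.35 and 0.41 elsewhere and differed by -1.42 ± 0.31 (adjusted p = 0.00743) and -1.65 ± 0.38 (adjusted p = 0.0124), where the first was -1.25 (adjusted p = 0.0388) without CBA/J and the second was lost at -1.45 (adjusted p = 0.0623). Nnmt lay below the others although it had itself risen, since its rise of 1.64 stood against 3.59 elsewhere, a difference of -1.95 ± 0.44 (adjusted p = 0.00996) that was -2.23 (adjusted p = 0.00362) without CBA/J.

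**Figure D5:**
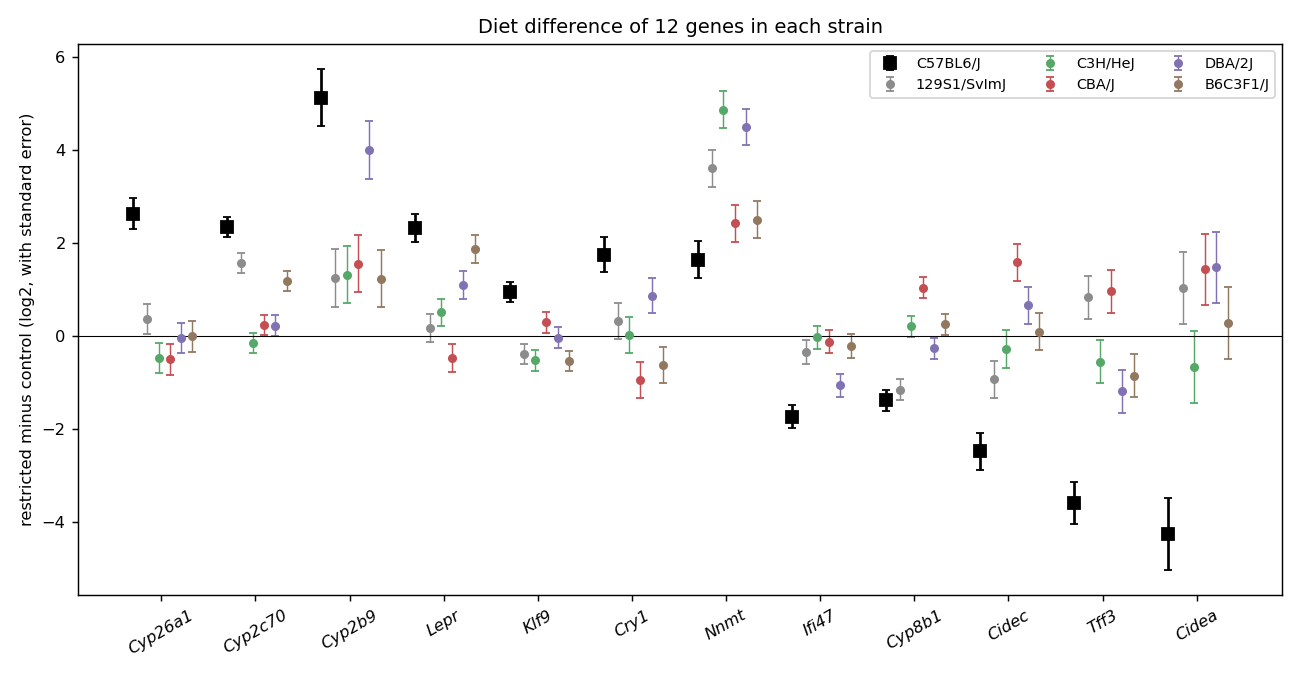
Difference of restricted minus control (log2) with its SE for 12 genes in each of the 6 strains, 8 mice per group. Black squares are C57BL6/J, which is farthest from 0 in Cyp26a1 at 2.64 and nearest to 0 in Nnmt at 1.64, where the other strains reach 4.88.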

How the data were processed

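Liver RNA of 96 male mice was hybridised singly to Affymetrix whole-genome mouse arrays, and groups and replicate numbers were taken from the sample titles. The deposited values are linear signal intensities per probe set, made by the authors with MAS5 (version not given in the sources used here) according to the submitters' processing notes. The 2% trimmed mean of each array was 500, the scaling target, so no further scaling was applied before log2. Each array is 1 mouse, so p-values measure the spread between mice, and the number of arrays limits the precision.

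Of 45101 probe sets, 64 controls were dropped, and 32999 were kept that reached the median signal of the array in at least 8 of 96 arrays. The platform annotation gave 34958 probe sets 1 symbol, 932 several and 9211 none. Of the named ones 34754 matched RefSeq by gene identifier, and 0 symbols changed. The probe set with the highest mean stood for each gene, which left 14816 genes. Group means were fitted over all 96 arrays with limma 3.58.1 in R 4.3.3 (lmFit, then eBayes with trend and robust settings), and p-values were adjusted by the Benjamini-Hochberg method over all genes with a threshold of 0.05. The procedure was tested on simulated data. The diet difference in C57BL6/J and its difference from the mean of the other 5 strains were the tested contrasts. A total of 14 array measures were compared by exact permutation over all 12870 splits of the 16 mice, two-sided and adjusted by the Benjamini-Hochberg method. Plots used Python 3.11.15 and matplotlib 3.10.9.

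Genes were described in 41 process lists and 12 lists of cell type markers, with 871 of 987 list genes measured. The comparison, the lists and the named genes were chosen with earlier results of these data known. Named genes were the 15 largest rises and the 15 largest falls among called genes above the mean array median, up to 6 members of each list by p-value with uncalled partners, the 10 largest called differences from the other strains on each side, and some metabolic regulators. Fasn and Acly were named after their values were seen. Sequences before gene starts came from RefSeq (GRCm38.p6) and were searched for 4 motifs.

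Alternatives were quantile normalization, centring on the 75th percentile, an added offset, 2 other filters, the mean of probe sets or every probe set, a plain variance model, array weights, the array median as a covariate, the replicate number as a block, fewer samples or strains, and each mouse left out. Leaving out both deviating C57BL6/J mice was chosen after seeing the data. The hour of collection and body weights were not analysed here.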

Additional observations from a re-analysis of the deposited data

Results flagged for a closer look

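The 308 groups of 8 C57BL6/J mice examined were the control and restricted groups of the 151 named genes (302 groups) and of 3 array measures (6 groups). In 30 of them, all for genes, the highest or lowest mouse stood farther from the others than a Dixon test at the 95% level allows. Chance alone gives about 1 in 20 such groups, and mice shared by many genes are not independent. Of the 30, 13 belonged to restricted replicate 2 and 10 to control replicate 1. Restricted replicate 2 was the lowest restricted mouse for the lipid regulators and transporters Srebf1 (11.22), Cpt1a (12.65), Ppara (11.98) and Abcg8 (10.47), for the clock genes Cry1 (7.20), Per2 (7.51) and Arntl (4.16), and for Sesn3 (8.73), Nadsyn1 (9.33) and Slc16a10, a thyroid hormone and amino acid transporter (10.12). It was the highest restricted mouse for Serpina12 (11.66), Nnmt (14.07) and C8b (12.25). Control replicate 1 was the lowest control mouse for Vnn1 (12.90), Rsad2 (9.60), C1qb (9.89), Hspa5 (13.92) and Fabp4 (8.20), and the highest for Slc37a4 (13.26), Igfbp1 (12.49), Ass1 (10.47), Cyp7a1 (13.78) and C6 (12.73).

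The other 7 were spread over 6 mice. They were G6pc at 14.14 in restricted replicate 7 and Lipa at 12.79 in restricted replicate 8, both high, and Tmem14a at 9.49 in restricted replicate 6, low. Among control mice, Igf1 was high at 14.46 in replicate 2, Elovl3 low at 11.41 in replicate 8, and C9 and Cpox low at 13.29 and 10.78 in replicate 4.

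For 34 of the 151 named genes the diet difference in C57BL6/J differed from the mean of the other 5 strains by limma's test of that difference (adjusted p under 0.05). Of the 34, 15 lost this call without CBA/J, namely Spon2, Gbp6, Cyp4a31, Pex11a, Foxo3, Tsc22d3, Cry1, Ifit3, Irgm1, Cd74, C1qb, Lcn2, Apoa4, Gbp2b and Car3. Cidea was below the array median in all groups of the other strains, so its difference cannot be told apart from its higher level in C57BL6/J control mice. The differences are in log2, with positive values where C57BL6/J lay higher. Among genes of metabolism, hormone response and the clock they were 3.26 for Cyp2b9, 2.77 for Cyp26a1, 1.88 for Noct, 1.82 for Cry1, 1.73 for Cyp2c70, 1.69 for Lepr, 1.63 for Tsc22d3, 1.23 for Foxo3 and 1.19 for Klf9. Clec2d, Ttc39a and Tmem14a stood at 1.68, 1.46 and 1.40. On the lower side, the lipid and metabolic genes were Cidea at -4.97, Cidec at -2.70, Nnmt at -1.95, Cyp8b1 at -1.40, Cyp4a31 at -1.17, Pex11a at -0.91, Apoa4 at -0.76 and Car3 at -0.54. The secreted factors were Tff3 at -3.44, Ccl2 at -3.20, Lcn2 at -2.60 and Spon2 at -1.91. Interferon and antigen-presenting genes were Gbp2b at -2.06, Cd74 at -1.65, H2-Eb1 at -1.42, Gbp6 and Ifi47 at -1.38, Usp18 at -1.27, C1qb at -1.23, Ifit3 at -1.04, Igtp at -1.0 and Irgm1 at -0.82.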

How the results depend on the processing

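The 550 calls of the diet comparison became 467 with quantile normalization, 332 with centring on the 75th percentile, 827 when every probe set was tested, 3085 with array weights, 1066 without the 2 arrays of high median and 1533 with the C57BL6/J arrays alone. With 1 mouse left out they ran from 417 (without control replicate 7) to 630 (without restricted replicate 2). The 103 differences from the other strains became 48 with centring on the 75th percentile, 1988 with array weights, 470 without the 2 arrays of high median, 300 with the array median as a covariate, 42 without CBA/J, 315 without B6C3F1/J and 221 without both C57BL6/J mice that stood apart. They ran from 60 (without control replicate 2) to 178 (without restricted replicate 2) with 1 mouse left out. The causes were not tested.

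With the replicate number as a block 526 genes were called for diet, 493 of them among the 550, and 158 for the difference from other strains. Same-numbered control and restricted mice showed little shared deviation (r from -0.07 to 0.104). This does not settle whether the numbers pair the mice in some way, which the titles do not state. The block changed the diet call of 5 of 151 named genes.

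Hamp2 changed sign, from 1.64 to -0.11, with the mean of its probe sets. Of the 151 named genes, 21 lost a call with centring on the 75th percentile, 13 with quantile normalization, 11 with the mean of probe sets and 4 without both mice that stood apart. Of the 34 named differences from the other strains 15 were lost without CBA/J, 11 with centring on the 75th percentile, 10 with quantile normalization, 9 with the mean of probe sets, 3 without both mice that stood apart and 3 to 10 with 1 mouse left out. With each of the 16 mice left out in turn, the calls of Tsc22d3 and Saa1 were lost in 10 fits, those of G6pc, C6 and Clec2d in 9, those of Ass1 and Hsd3b7 in 6, those of Idi1, Gclc, Sesn3, C1qb and Ndufv1 in 4 and those of Cd74 and Dhcr7 in 3. Signals below the array median limit the sizes given for Cidea, Tff3, Inhba, Spon2, Ly6d, Crygf, Ccl2, Hao2, Sult1e1, Cyp2b13, Cyp2b10 and Ttc39a.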

Other observations

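Haem synthesis genes differed in both directions. Of 20 measured haem and iron genes 3 were called higher and 1 lower, against 1.86% called higher and 1.85% called lower among all genes. The higher ones include Hamp2, whose direction depends on the probe set. Urod, uroporphyrinogen decarboxylase, ran from 11.97 to 12.45 in control mice (median 12.07) and from 12.67 to 13.06 in restricted mice (median 12.86), without overlap, and rose by 0.72 ± 0.17 (adjusted p = 0.00492). The other probe set of Urod gave 0.36 and was not called (limma, adjusted p = 0.443 over all probe sets). Cpox, the next enzyme of the pathway, fell by 0.97 ± 0.23 (adjusted p = 0.00475). Alas2, the erythroid form of the first enzyme and a marker of red cell precursors, ran from 10.83 to 11.92 in control mice (median 11.22) and from 9.74 to 10.77 in restricted mice (median 10.33) and fell by 1.0 ± 0.21 (adjusted p = 0.000804). The groups of Alas2 did not overlap, and it is not on the haem and iron list. It was the 1 called of 3 measured erythroid markers, 2 of which lay below the array median in both groups. The mean of these markers was 6.915 ± 0.82 (SD) in control mice and 6.376 ± 0.52 in restricted mice (two-sided exact permutation p = 0.142, adjusted p = 0.214). The part of blood content in the fall of Alas2 was not tested.

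In the lists that follow, the called share ran from 5.88% for p53 targets to 30% for thyroid hormone responsive genes, against 3.71% of all genes. In one-carbon metabolism 1 of 19 genes was called higher and 1 lower. These were Mthfd1, a folate enzyme (0.78 ± 0.18, adjusted p = 0.00258), and Bhmt, which remakes methionine from betaine (-0.68 ± 0.15, adjusted p = 0.00252). Of 18 genes of the amino acid and integrated stress response 1 was called higher, Vldlr, the very low density lipoprotein receptor (1.43 ± 0.32, adjusted p = 0.00169), and 2 lower, Atf5 and Fgf21. Of 17 hepatokines 1 was called higher, Igfbp1, and 3 lower, among them Inhbe, the inhibin beta E subunit. Inhbe ran from 9.87 to 11.11 in control mice (median 10.23) and from 8.20 to 9.82 in restricted mice (median 9.07) and fell by 1.28 ± 0.24 (adjusted p = 0.000109), without overlap. Of 10 thyroid hormone responsive genes 3 were called higher, namely Thrsp, Klf9 and Slc16a10, the last by 0.81 ± 0.17 (adjusted p = 0.000454). Among 22 xenobiotic receptors and P450 genes 2 were called higher, Cyp26a1 and Cyp2b10, a target of the receptor CAR, which rose by 2.22 ± 0.61 (adjusted p = 0.0187) from a control mean below the array median. Of 17 p53 targets 1 was called higher, Btg2, an antiproliferative gene (0.77 ± 0.22, adjusted p = 0.025). Of 29 autophagy and lysosome genes 3 were called lower, among them Dnase2a, a lysosomal nuclease (-1.41 ± 0.37, adjusted p = 0.0122).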
